A study of Mus musculus with 2 samples.

Results

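Pi16+ Dpp4+ FAPs are a subset of fibro/adipogenic progenitors (FAPs), the Pdgfra-expressing stromal cells of skeletal muscle, and 226 of the 8010 cells in the 2 single cell RNA-seq libraries of the study met the rule that defines them here. The cells were chosen by their raw counts of unique molecular identifiers (UMIs, tags that count RNA molecules). A cell was gated as a FAP if it had at least 500 detected genes, at least 1 Pdgfra UMI and at least 5 Dcn UMIs, no UMI of Ptprc (leukocytes), Cdh5 or Pecam1 (endothelial cells), at most 1 UMI of the tenocyte genes Tnmd, Kera and Chad together, and fewer than 3 of 6 cell cycle genes (Mki67, Top2a, Birc5, Cdk1, Ccna2 and Ube2c). Gated FAPs with at least 5 Pi16 UMIs and at least 1 Dpp4 UMI were the Pi16+ Dpp4+ FAPs, 95 in the Ctrl library and 131 in the dKO library. The remaining 721 Ctrl and 747 dKO gated FAPs are called the other gated FAPs below.

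FAPs lie between muscle fibres and in the connective tissue sheaths around vessels and fascicles. They lay down collagen and other matrix, send growth factors and cytokines to muscle stem cells (MuSCs) and macrophages, and can turn into adipocytes or fibroblasts in diseased muscle. Fibroblasts that express Pi16, a secreted peptidase inhibitor, and Dpp4, a membrane-bound dipeptidyl peptidase also known as CD26, are found in many tissues, often in the adventitia of vessels and in fascia. Cells of this kind are often described as progenitors of more specialised fibroblasts. Sema3c (a secreted semaphorin), Smpd3 (a neutral sphingomyelinase), Efhd1 (a calcium-binding protein of mitochondria), Sbsn (suprabasin, known from the epidermis) and Cd55 (which protects cells from complement) mark them together with Pi16 and Dpp4.

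Both libraries came from hind limb muscle of mdx mice (C57BL/10 ScSn DMDmdx), which lack dystrophin and model Duchenne muscular dystrophy. Ctrl mice were Pax7CreERT2/R26YFP; Yy1+/+; mdx, and dKO mice were Pax7CreERT2/R26YFP; Yy1f/f; mdx, so that tamoxifen deletes Yy1, which encodes a DNA-binding zinc finger protein, in the Pax7-expressing MuSCs of dKO mice and not in FAPs. Per the methods of the study, tamoxifen was given by 5 daily intraperitoneal injections to Ctrl and dKO mice alike from 1.5 months of age, and muscle was taken 1 month later, whereas the label of the Ctrl sample gives no treatment. For each library, live mononuclear cells of 3 mice were pooled and sorted after lysis of red blood cells. With 1 library per group there were no replicates and no test was run. Every interval below is a 95% interval that covers counting error only, and a difference between the libraries cannot be told apart from a difference between the 2 pools or preparations.

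The libraries held 45556596 UMIs in 4527 cells (Ctrl) and 33815155 UMIs in 3483 cells (dKO). The Pi16+ Dpp4+ FAPs held 1182677 and 1910751 of these UMIs. Their median depth was 12128 UMIs in Ctrl (990 to 36949) and 13166 in dKO (1990 to 64360), close to the medians of the other gated FAPs, 12073 and 12421. The libraries shared 7 cell barcodes, none of them among the Pi16+ Dpp4+ FAPs. Levels are given as CPM, counts per 1e+06, that is, the UMIs of a gene scaled to 1e+06 UMIs of the cells summed.

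The first question was whether cells picked on 2 genes also carried the rest of the marker set. Since the same counts chose the cells, these levels are a description with no test. Pi16 (chromosome 17, 29317680 to 29330593, plus strand, GRCm38) stood at 2724 CPM in Ctrl and 2427 CPM in dKO, against 182 and 263 CPM in the other gated FAPs. Dpp4 (chromosome 2, 62330073 to 62412231, minus strand) stood at 318 and 210 CPM against 9.03 and 5.78 CPM. The thresholds fix the direction of both. All 5 markers that the thresholds did not use were higher too. Sema3c stood at 782 and 738 CPM against 61.8 and 69.1 CPM, and Cd55 at 627 and 380 CPM against 56.5 and 45.8 CPM. Sbsn stood at 290 and 329 CPM against 9.13 and 12.6 CPM, and Efhd1 at 155 and 129 CPM against 10.3 and 9.42 CPM. Smpd3 stood at 110 and 69.1 CPM against 2.38 and 4.29 CPM. The gap to the other gated FAPs was thus wide for each marker in both libraries.

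**Figure D1:**
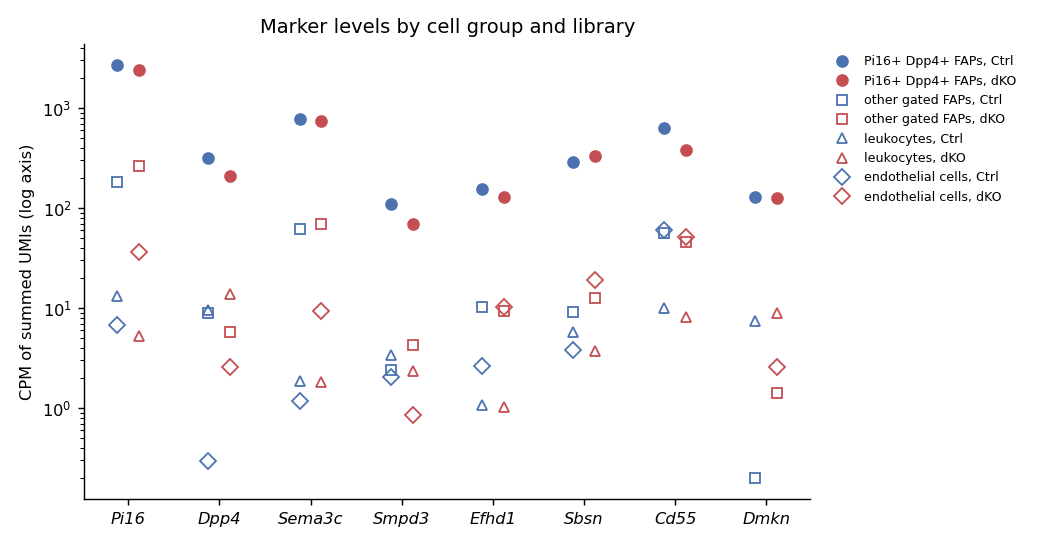
Levels of the 7 markers and of Dmkn in Pi16+ Dpp4+ FAPs (filled circles), other gated FAPs (squares), leukocytes (triangles) and endothelial cells (diamonds) of the Ctrl (blue) and dKO (red) libraries, as CPM of summed UMIs on a log axis. For each gene both filled circles lie above every other symbol; Dmkn had no UMI in Ctrl endothelial cells, so that symbol is missing.

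Counted cell by cell, at least 3 of the 5 unused markers were detected in 71 of the 95 Ctrl cells (74.7%) and 106 of the 131 dKO cells (80.9%), against 6.38% and 9.64% of the other gated FAPs. The median cell had 4 of the 5 markers, and the median other gated FAP had 1. A few members carried none of them, 3 in Ctrl and 4 in dKO. When cells were thinned to an equal 5000 UMIs (9 Ctrl and 5 dKO members were too shallow), a Sema3c UMI was found in 83.7% of Ctrl and 83.3% of dKO members (unthinned 92.6% and 90.8%). In leukocytes, which should lack Sema3c and stand for free RNA, the thinned share was 0.80% and 0.711% (unthinned 1.20% and 1.23%, median depths 8856 and 7655 UMIs). For Smpd3 the thinned shares were 34.9% and 21.4% in members and 1.60% and 1.42% in leukocytes. Ly6a, whose product Sca-1 is used to sort FAPs, was found in every thinned member of both libraries.

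Cells close to the thresholds were few. Just inside, with 5 or 6 Pi16 UMIs, were 7 Ctrl and 10 dKO cells, in which Sema3c stood at 232 and 189 CPM. Just outside, with 3 or 4 Pi16 UMIs and at least 1 Dpp4 UMI, were 10 Ctrl and 8 dKO cells, with Sema3c at 194 and 225 CPM. Sbsn stood at 35.7 and 335 CPM just inside and at 0 and 33.7 CPM just outside. Sema3c was thus higher just inside in Ctrl and just outside in dKO, and Sbsn was higher just inside in both. With so few cells, and Sbsn reaching 56 UMIs in 1 dKO member, no size of step is read from these values. The Dpp4 threshold set the membership of far more cells, because 108 Ctrl and 135 dKO gated FAPs had 5 or more Pi16 UMIs and no Dpp4 UMI, and 27 and 40 of the members had exactly 1. In members with 1 Dpp4 UMI, Sema3c stood at 298 and 410 CPM and Cd55 at 206 and 248 CPM. In the cells with Pi16 and no Dpp4 UMI, Sema3c stood at 144 and 140 CPM and Cd55 at 166 and 101 CPM, lower in both libraries. Another 30 cells in each library met the Pi16 and Dpp4 thresholds and failed the FAP gate, most often for lack of a Pdgfra UMI (16 and 18 cells).

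The members were not uniform, and several genes followed the number of Pi16 UMIs per cell. Members with 5 to 9, 10 to 24 and 25 or more Pi16 UMIs numbered 16, 37 and 42 in Ctrl and 22, 40 and 69 in dKO. Across these bins Igfbp5, which encodes a secreted binding protein of insulin-like growth factors, went from 435 to 886 to 3078 CPM in Ctrl and from 298 to 753 to 2564 CPM in dKO. Sema3c went from 231 to 562 to 1156 CPM and from 304 to 461 to 1025 CPM. Mgp, an inhibitor of calcification that other FAPs express at higher levels, went the other way, from 2115 to 1150 to 601 CPM and from 954 to 424 to 178 CPM. The 16 genes of the parenchymal FAP list, markers of the FAPs that lie between fibres, summed to 8931, 5228 and 3335 CPM in Ctrl and to 5046, 4875 and 3073 CPM in dKO. Both libraries thus had the same order of bins for these 4 measures. The median depths of the 3 bins did not follow the same order, at 12737, 10743 and 12406 UMIs in Ctrl and 12618, 14036 and 12904 UMIs in dKO.

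A smaller group of members expressed Dmkn (dermokine, a secreted protein of the epidermis), the gene with the widest gap between members and other gated FAPs by the rule for named genes. Dmkn had 152 UMIs in 18 of 95 Ctrl members and 242 UMIs in 32 of 131 dKO members, with up to 43 and 33 UMIs in 1 cell, against 2 and 15 UMIs in all other gated FAPs. Dmkn (chromosome 7, 30763756 to 30781063, plus strand, GRCm38) lies 7621 bases from Sbsn and 6832 bases from Krtdap, another epidermal gene, which was looked up after the values of the first 2 were seen. Every one of the 18 Ctrl members with Dmkn also had Sbsn, against 29 of the 77 without (37.7%, 26.9 to 49.4). In dKO, 29 of 32 members with Dmkn had Sbsn (90.6%, 74.98 to 98.0), against 46 of 99 without (46.5%, 36.4 to 56.8). Krtdap was found in 10 of 18 and 14 of 32 members with Dmkn, and in 6 of 77 and 4 of 99 without. Most members with Dmkn thus carried Sbsn as well, whereas most members with Sbsn had no Dmkn UMI. Members with Dmkn were also those with more Pi16, at a median of 54.5 against 17 UMIs in Ctrl and 38.5 against 20 in dKO. Igfbp5, which followed Pi16 above, stood at 5040 and 4140 CPM in them, against 1110 and 961 CPM in members without Dmkn. Median depth was 11194 and 12514 UMIs in members with Dmkn and 12192 and 13622 in those without. Leukocytes carried Dmkn at 7.36 and 9.02 CPM, more than the other gated FAPs did.

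Over all 7578 genes with enough UMIs to compare members with other gated FAPs in each library, 335 (4.42%) were at least 1.5-fold higher and 457 (6.03%) at least 1.5-fold lower in the members of both libraries. The 15 highest were Dmkn, all 7 markers of the rule, and Cmah (which makes a sialic acid), Arl4d (a small GTPase), Mgll (monoglyceride lipase), 1700019D03Rik, Igfbp5, Il18 (a cytokine of the interleukin-1 family) and Cadm3 (a cell adhesion protein). Of the adventitial fibroblast list 12 of the 14 genes compared were higher and none lower. Among them were Pcolce2, an enhancer of procollagen processing, at 408 and 412 CPM against 45.3 and 69.1 CPM, and Anxa3, an annexin, at 719 and 702 CPM against 101 and 143 CPM. Cd34, an adhesion protein of stromal and endothelial progenitors, stood at 986 and 805 CPM against 405 and 370 CPM. None of these genes was used in the rule, but they were read from the same cells, so no test was made.

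Matrix genes were split. Of the microfibril and elastic fibre list 6 of 19 were higher in members of both libraries and 3 lower. Fbn1 (fibrillin-1) stood at 2892 and 2387 CPM against 1146 and 1089 CPM, and Fn1 (fibronectin) at 4113.5 and 4176 CPM against 1663 and 1585 CPM. Of the fibrillar collagen list 8 of 22 were lower and none higher. Col1a1 stood at 4316 and 2865 CPM against 6958 and 4939 CPM, and Col6a3 at 834 and 604 CPM against 1788 and 1110 CPM. Of the parenchymal FAP list 14 of 16 were lower. Smoc2, a calcium-binding matrix protein, stood at 550 and 287 CPM against 1298 and 854 CPM. Of the myofibroblast list 9 of 13 were lower, among them Ccn2, a TGF-beta target, at 241 and 161 CPM against 607 and 416 CPM.

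The 10 genes with the lowest levels in members relative to other gated FAPs were Gng2, Rbfox1, Bdnf, Cpe, Itga1, Tnc, Slc7a2, Foxs1, Pappa and Ptn. Tnc, the tenascin of injured and developing connective tissue, had 3 UMIs in Ctrl members and 51 in dKO members, against 279 and 277 CPM in the other gated FAPs. Ptn (pleiotrophin, a growth factor) stood at 13.5 and 6.28 CPM against 112 and 53.8 CPM. The remaining 8 had at most 6 UMIs in the members of either library. Of the complement list 2 of 11 genes were higher and 3 lower in members, where 4.42% and 6.03% of all genes compared were. The list thus went both ways, and the 2 higher genes were C3 and C4b. C3, the central complement component, stood at 2911 and 3048.5 CPM against 649.95 and 1169.5 CPM, and C4b at 594 and 670 CPM against 80.0 and 194 CPM.

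The next comparison asked whether the subset took a larger share of FAPs in dKO. Members made up 11.6% of 816 gated FAPs in Ctrl (9.52 to 14.0, exact binomial) and 14.9% of 878 in dKO (12.6 to 17.5). The difference was 3.28 percentage points, with a Newcombe counting interval of 0.0327 to 6.50. Of all cells with at least 500 genes, members made up 2.19% in Ctrl against 3.94% in dKO, or 1.74 points more (0.968 to 2.56). The first of these intervals reached 0 under every other setting tried but 1, a minimum of 200 genes per cell. It was -0.389 to 6.29 points with at least 3 Pi16 UMIs, -0.165 to 5.98 with at least 8, -1.52 to 4.59 when cells were thinned to 5000 UMIs and -0.0827 to 6.45 with doublets removed. In cells of 8000 to 20000 UMIs the interval was -1.80 to 7.53 points. A higher share of gated FAPs in dKO was therefore not separable from counting error. The interval of the share of all cells stayed above 0 in each of these settings. However, gated FAPs as a whole were 816 of 4335 cells with at least 500 genes in Ctrl and 878 of 3329 in dKO, a larger share. The share of all cells includes that difference, so it does not describe the subset within FAPs.

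**Figure D2:**
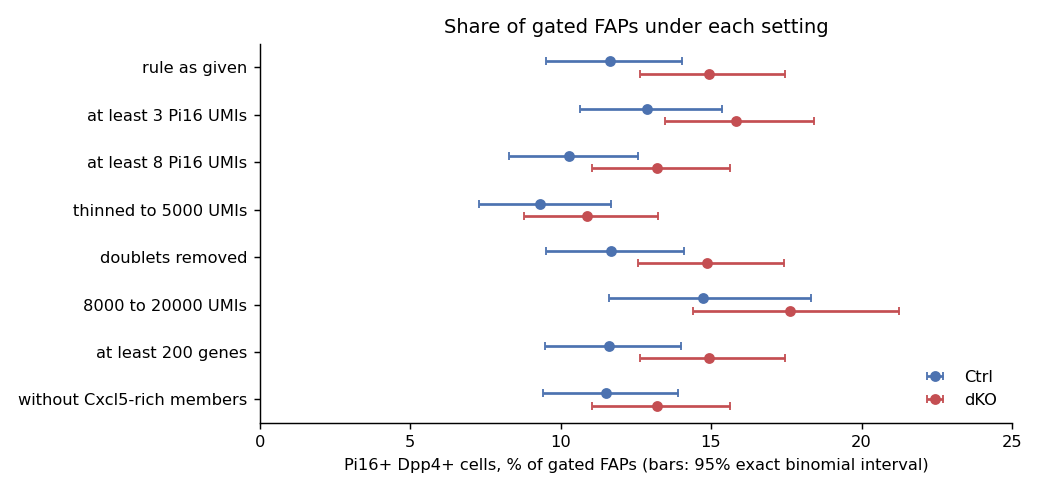
Pi16+ Dpp4+ cells as a percentage of gated FAPs in Ctrl (blue) and dKO (red) under the rule and 7 other settings, with exact 95% binomial intervals as bars. The dKO point lies to the right in each setting, and the intervals of the 2 libraries overlap in each.

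Yy1 transcript was present in the members of both libraries, at 131 CPM in Ctrl (111 to 153) and 156 CPM in dKO (139 to 175). In cells gated as MuSCs it stood at 167 CPM in 69 Ctrl cells and at 8.17 CPM (3 UMIs) in 15 dKO cells. The label of the dKO library thus held for the targeted cells, and the members had not lost the transcript.

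Markers of other cell types were sparse in the members, and the gate fixed part of this. It allowed no UMI of Cdh5 or Pecam1, both on the endothelial list. At most 1 UMI of Tnmd, Kera and Chad together, all on the tenocyte list, was allowed. Cells with a UMI of the leukocyte gene Ptprc were also left out. The T and B cell list summed to 0 UMIs in Ctrl and 3 in dKO, the adipocyte list to 0 and 1, the erythroid list to 2 and 0, the endothelial list to 14 and 12, the mural list to 20 and 19, the muscle fibre list to 22 and 23 and the Schwann cell list to 14 and 15. The neutrophil list summed to 62 UMIs in Ctrl and 14 in dKO (52.4 and 7.33 CPM), and stood at 38.9 and 5.04 CPM in the other gated FAPs. The macrophage list summed to 315 and 395 UMIs, of which Apoe, which FAPs also express, held 177 and 207. The tenocyte list summed to 940 and 1493 UMIs, nearly all of them of Thbs4 (916 and 1479), and the MuSC list to 90 and 124, mostly of Vcam1 (74 and 108). The perineurial list summed to 25 and 93 UMIs, of which the glucose transporter gene Slc2a1 held 16 and 87, and the mesothelial list to 8 and 36. The part of these transcripts in the differences below was not tested.

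Gene by gene, members of dKO were then compared with members of Ctrl. Of the 24984 genes, 4044 had at least 100 UMIs over the members of both libraries. At a fold of 1.5 or more, 346 of these were higher in dKO (8.56%) and 159 lower (3.93%), and the median log2 ratio was 0.03. In the other gated FAPs, 133 of the same 4044 genes were higher and 29 lower, in which 10079198 and 10721605 UMIs were summed. The lists overlapped in part: 71 genes were higher in both, which is 20.5% of the 346 and 53.4% of the 133, and 14 were lower in both, 8.81% of the 159 and 48.3% of the 29. Leaving out 16 members with 5 or more UMIs of the chemokine gene Cxcl5, a limit chosen after the values were seen, reduced the counts to 180 higher and 88 lower of 3607 genes tested. These cells are described with the cytokine genes.

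**Figure D3:**
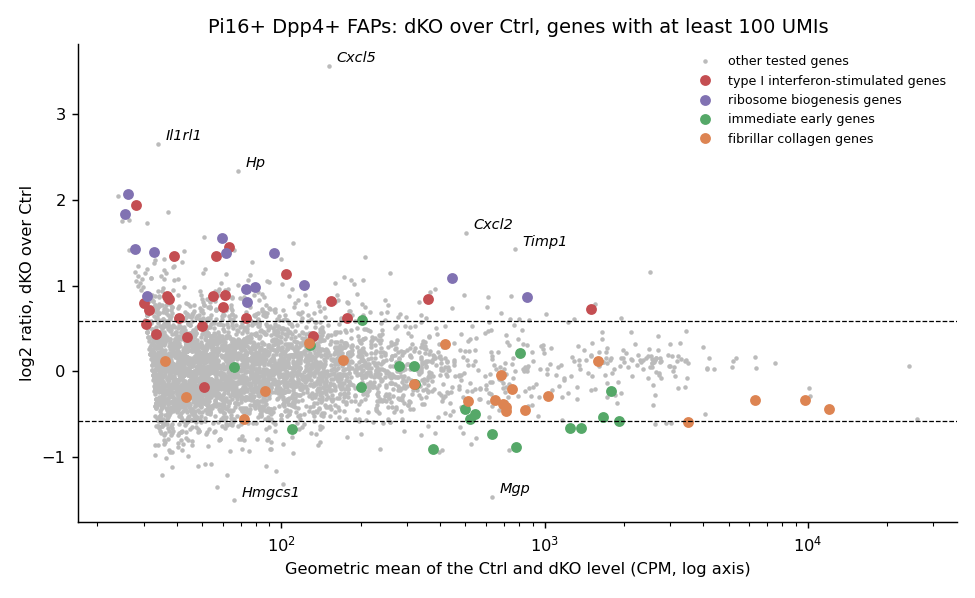
log2 ratio of dKO over Ctrl in Pi16+ Dpp4+ FAPs against the geometric mean of the 2 levels (CPM, log axis) for 4044 genes, with dashed lines at 1.5-fold. Type I interferon-stimulated (red) and ribosome biogenesis genes (purple) lie mostly above the upper line, while immediate early (green) and fibrillar collagen genes (orange) lie mostly below 0.

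The 10 highest log2 ratios were those of Cxcl5 (3.57, 3.16 to 4.0), Il1rl1 (2.66), Hp (2.34), Wdr43 (2.07), Actn1 (2.04), Rsad2 (1.93), Hilpda (1.86), Dkc1 (1.83), Nr4a2 (1.76) and Slc2a1 (1.75). They encode a neutrophil chemokine, the receptor of interleukin-33, the acute phase protein haptoglobin, a factor of ribosome assembly, an actin crosslinker, an antiviral enzyme, a lipid droplet protein, a pseudouridine synthase, a nuclear receptor and a glucose transporter. The 10 lowest were those of Hmgcs1 (-1.51, -1.94 to -1.09), Mgp (-1.46), Ifi30 (-1.35), Col15a1 (-1.32), Itga11 (-1.21), Pxdc1 (-1.21), Pi15 (-1.16), Arid5a (-1.11), Sspn (-1.11) and Socs1 (-1.11). Among these are an enzyme of cholesterol synthesis, a lysosomal thiol reductase, a collagen of basement membrane zones, a collagen-binding integrin, a dystrophin-associated protein (sarcospan) and an inhibitor of cytokine signalling. No gene of the lowest 10 reached the size of the 10 highest.

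The marker set itself was somewhat lower in dKO members, and 3 of its 7 genes passed 1.5-fold. Cd55 had 742 UMIs in Ctrl and 726 in dKO, a log2 ratio of -0.72 (-0.87 to -0.57). Smpd3 had 130 and 132 UMIs (-0.67, -1.03 to -0.31) and Dpp4 376 and 402 UMIs (-0.60, -0.80 to -0.39). The cells were chosen by Dpp4 and Pi16, and in the other gated FAPs Dpp4 stood at -0.64. Per cell, Dpp4 ran from 1 to 17 UMIs in Ctrl with a median of 3 and from 1 to 12 in dKO with a median of 2, and Pi16 from 5 to 258 with a median of 22 and from 5 to 157 with a median of 28. Efhd1 (-0.27), Pi16 (-0.17), Sema3c (-0.08) and Sbsn (0.18) stayed within 1.5-fold. Without the Cxcl5-rich members the summed log2 ratio of the 7 markers moved from -0.23 to -0.06 and none passed 1.5-fold, and in cells of 8000 to 20000 UMIs it was 0.10, so its direction depended on the cells included.

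Interferon-stimulated genes are switched on by type I interferons through transcription factors that bind a promoter element with 2 GAAA boxes. Their promoters are shown first, since most tested genes of this group were higher in dKO. The motif, GAAA followed by any 2 bases and a further GAAA, was searched on both strands in the window from 250 bases before to 50 bases after each start, in promoter sequences of RefSeq (GRCm38.p6) and overlapping matches were counted. It was found in 1079 of 27025 genes with a promoter in that table (3.99%), in 13 of 25 genes of the interferon list that had one (52.0%) and in 10 of the 17 that were also tested in members (58.8%). The 6 stretches below are from tested interferon genes with all matches before the start. Trim30a, which has 2 promoters in the table and a match before the start in 1 of them, is not shown. The stretches are written 5′ to 3′ on the strand of the gene with 20 bases on each side, and capitals mark the match or its reverse complement.
Ifit1, chr19:34640765-34640833, plus strand: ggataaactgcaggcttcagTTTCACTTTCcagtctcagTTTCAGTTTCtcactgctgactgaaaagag
Ifit3, chr19:34583353-34583436, plus strand: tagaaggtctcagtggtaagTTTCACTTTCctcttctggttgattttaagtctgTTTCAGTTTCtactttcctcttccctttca
Isg15, chr4:156200855-156200916, minus strand: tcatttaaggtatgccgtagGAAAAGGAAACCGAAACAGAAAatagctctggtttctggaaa
Rsad2, chr12:26456543-26456592, minus strand: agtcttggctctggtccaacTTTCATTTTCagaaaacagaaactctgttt
Stat2, chr10:128270256-128270305, plus strand: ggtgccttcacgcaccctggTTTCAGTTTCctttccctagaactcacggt
Bst2, chr8:71537567-71537622, minus strand: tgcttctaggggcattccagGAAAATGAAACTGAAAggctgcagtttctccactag

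Of the 36 genes of the type I interferon list, 24 had at least 100 UMIs over the members. Of these 18 were at least 1.5-fold higher in dKO and none lower, where 8.56% and 3.93% of all tested genes were. Genes such as Rsad2 (17 and 105 UMIs) and Rtp4 (29 and 119) reached 100 UMIs only through dKO, so the filter favours that count. The list summed to 2597 CPM in Ctrl and 4462 CPM in dKO, a log2 ratio of 0.78 (0.72 to 0.84). Irf7, a transcription factor of the interferon response, had 83 UMIs in 35 of 95 Ctrl members and 295 UMIs in 91 of 131 dKO members (log2 ratio 1.14, 0.78 to 1.51). Rtp4, an inhibitor of viral replication, had 29 UMIs in 21 Ctrl members and 119 in 56 dKO members (1.34). Isg15, a ubiquitin-like protein, had 138 and 393 UMIs (0.82), and Bst2 (tetherin) 317 and 920 (0.85). These 4 genes were spread over many cells. By contrast, Rsad2 (17 and 105 UMIs) had 41 of its dKO UMIs in 1 cell and Ifit3 (45 and 199) had 85 in 1, while Ifit1 had 42 and 172 UMIs, with up to 7 and 28 in 1 cell. Ifit genes are near-copies of each other, so reads may have been split or shared between them. Stat2, whose promoter is shown above, had 49 and 114 UMIs and stayed within 1.5-fold (0.53). The exception in sign was Eif2ak2, which encodes the kinase PKR, with 64 and 91 UMIs and a log2 ratio of -0.18.

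The difference was not confined to a few cells. Per 10000 UMIs of a cell, the list had a lowest value of 2.14, a median of 20.1 and a highest of 110 in Ctrl members, and 6.99, 37.6 and 237 in dKO members. The 2 ranges overlapped widely, yet 81.7% of dKO members lay above the Ctrl median. In the other gated FAPs the list was lower in Ctrl (1332 CPM) and stood at 3546 CPM in dKO, a log2 ratio of 1.41 (1.38 to 1.44). Members over other gated FAPs differed by a log2 ratio of 0.96 in Ctrl and 0.33 in dKO. The ratio within members was 0.61 to 0.86 over all alternative settings that gave another value.

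**Figure D4:**
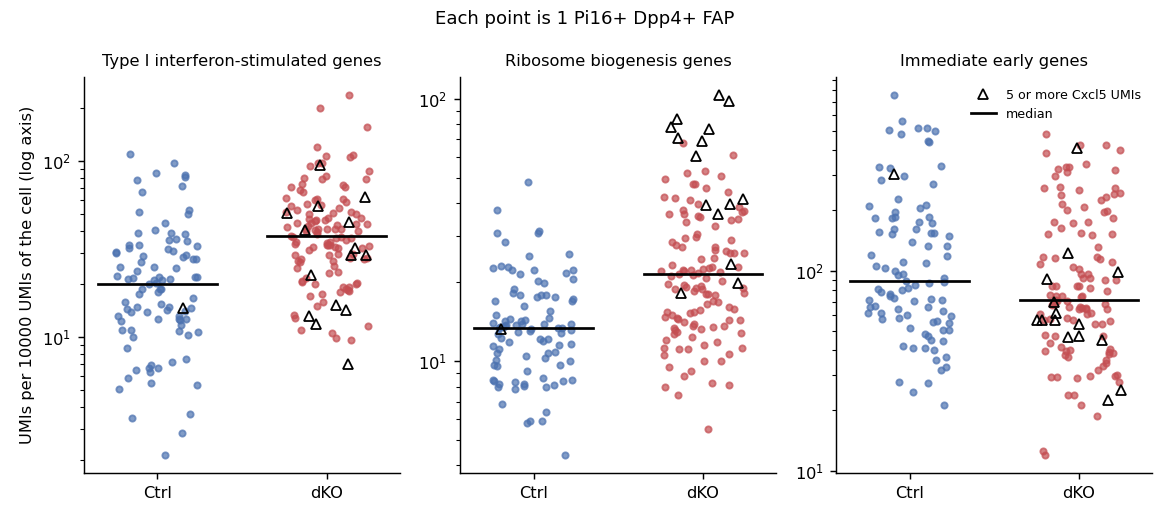
UMIs of 3 gene lists per 10000 UMIs of a cell (log axis) in each Ctrl (blue) and dKO (red) Pi16+ Dpp4+ FAP, with medians as lines and cells with 5 or more Cxcl5 UMIs as open triangles. The medians are 20.1 and 37.6 for interferon genes, 13.4 and 21.5 for ribosome biogenesis genes and 88.7 and 71.5 for immediate early genes.

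The summed levels of antigen presentation and interferon-gamma genes were also higher in dKO members, the second not in every setting. MHC class I and immunoproteasome genes had 5 of 11 tested genes higher and none lower, where 8.56% and 3.93% of all tested genes were. Their sum went from 2854 to 4314 CPM (log2 ratio 0.60, 0.54 to 0.65, against 0.75 in the other gated FAPs). H2-K1, a class I heavy chain, had 650 and 1925 UMIs (0.87) and B2m, the light chain, 950 and 2446 (0.67), found in 94 of 95 and 130 of 131 members. Class I heavy chain genes are similar in sequence, so the split between H2-K1 and H2-D1 is uncertain. The interferon-gamma list, mostly GTPases of cell-autonomous defence, had 5 of 8 tested genes higher and 1 lower (summed log2 ratio 0.56, 0.44 to 0.68). Iigp1, one of these GTPases, had 84 and 274 UMIs, and the chemokine gene Cxcl10 had 167 and 563 (1.06), of which 94 and 214 were in 1 cell. Socs1, a feedback inhibitor on that list, had 84 and 63 UMIs (-1.11), with 34 of the Ctrl UMIs in 1 cell. When cells were thinned to 5000 UMIs before members were chosen, the interferon-gamma list stood at -0.06 and Cxcl10 at -0.16. The motif above was found in 11 of the 14 interferon-gamma genes and 5 of the 17 MHC class I genes with a promoter.

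Cytokine genes of activated FAPs were higher in dKO members as a group, with 9 of 17 tested genes higher and 1 lower. Their sum went from 7973 to 12974 CPM, a log2 ratio of 0.70 (0.67 to 0.74), against 0.58 in the other gated FAPs. Ccl2, a monocyte chemokine, had 748 and 2227 UMIs (0.88), Il33, an alarmin of stromal cells, 316 and 967 (0.92) and Tnfaip6, a hyaluronan-binding protein, 1405 and 3896 (0.78). Timp1, an inhibitor of matrix metalloproteinases, had 559 UMIs in 59 Ctrl members and 2420 in 101 dKO members (1.42). Cxcl2, a neutrophil chemokine, had 339 UMIs in 24 Ctrl members, of which 188 were in 1 cell, and 1680 in 49 dKO members, at most 159 in 1 cell (1.62, and 2.62 without the top cell of each library). The gene of the list that was lower was Cxcl13, a B cell chemokine, with 383 UMIs in 24 Ctrl and 330 in 31 dKO members (-0.91, -1.12 to -0.69). Cxcl13 was far higher in members than in other gated FAPs, where it stood at 5.95 and 37.3 CPM.

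Cxcl5 had the highest ratio of all genes, and few cells carried it. In Ctrl members it had 52 UMIs in 3 cells, with 50, 1 and 1. In dKO members it had 995 UMIs in 20 cells, the highest 3 holding 290, 187 and 116. Cells with 5 or more Cxcl5 UMIs (Cxcl5-rich) were 1 of 95 Ctrl members (1.05%, 0.0266 to 5.73) and 15 of 131 dKO members (11.5%, 6.55 to 18.2), a difference of 10.4 points (3.99 to 17.0). Among the other gated FAPs 10.3% in Ctrl and 14.5% in dKO were Cxcl5-rich, a difference of 4.19 points (0.821 to 7.56). Ctrl members were thus the only one of these 4 groups in which such cells were nearly missing. Thinned to 5000 UMIs, 2.33% of Ctrl and 15.1% of dKO members had a Cxcl5 UMI, against 1.5% and 1.56% of leukocytes (median depths 8856 and 7655 UMIs).

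The 15 Cxcl5-rich dKO members had fewer Pi16 UMIs for their depth than the other 116, with a median of 9.42 against 25.9 per 10000 UMIs. They were deeper, with a median of 18342 against 12678 UMIs, which makes the raw thresholds easier to meet. In them Sema3c stood at 223 CPM against 861 CPM, Timp1 at 3430 against 751 CPM and Mgp at 160 against 433 CPM. In the other gated FAPs that were Cxcl5-rich in dKO, Sema3c stood at 48.9 CPM and Timp1 at 2927 CPM. Leaving the Cxcl5-rich members out moved several of the highest genes by more than 1.5-fold. The log2 ratio became 1.85 for Il1rl1, 0.92 for Actn1, 0.23 for Hilpda, 1.13 for Slc2a1, 0.64 for Timp1, 0.54 for Inhba and 2.71 for Cxcl2. Of the cytokine list 5 of 16 genes tested were then higher and 2 lower, where 4.99% and 2.44% of all genes then tested were. Its summed log2 ratio was 0.55.

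Il1rl1 had 16 UMIs in 6 Ctrl members and 163 in 20 dKO members, with 41 in 1 cell. Its level in the other gated FAPs was 86.0 and 216 CPM, higher than in members of the same library. Hp had 36 UMIs in 17 Ctrl members and 295 in 22 dKO members, so that nearly the same share of cells carried it (17.9% and 16.8%), while the most in 1 cell was 7 and 65. Hp differed in the other gated FAPs too, at 5.85 and 46.8 CPM (log2 ratio 3.0). It led the acute phase list, of which only this 1 of 7 tested genes passed 1.5-fold.

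Genes of ribosome biogenesis were noticed among the highest ratios, and a list of 25 was drawn up after that, so its counts are a description. All 14 tested genes were at least 1.5-fold higher in dKO members, but 11 of the 25 had too few UMIs to be tested, and genes such as Wdr43 and Dkc1 reached 100 UMIs only through dKO, where they are high. The choice of the list and this filter largely fix that count, and nothing is read from it. The sum went from 1519 to 3128 CPM, a log2 ratio of 1.04 (0.97 to 1.12), against 0.30 (0.28 to 0.33) in the other gated FAPs. Ncl (nucleolin) had 360 and 1239 UMIs (1.09), Npm1 (nucleophosmin) 754 and 2221 (0.87) and Nop56, part of the box C/D snoRNP, 45 and 189 (1.38). Wdr43 had 15 UMIs in 14 Ctrl members and 102 in 58 dKO members, Dkc1 16 UMIs in 15 and 92 in 49, and Nolc1 41 UMIs in 28 and 195 in 76. As shares of members these were 14.7% and 44.3% for Wdr43, 15.8% and 37.4% for Dkc1 and 29.5% and 58.0% for Nolc1. These genes were named for their high ratios, so the shares are a description. Per 10000 UMIs the list had a median of 13.4 in Ctrl members and 21.5 in dKO members, and 14 dKO members lay above the highest Ctrl member (48.1). The Cxcl5-rich dKO members had a median of 60.3, against 19.6 in the remaining dKO members. Without the Cxcl5-rich members the summed log2 ratio was 0.61 (0.53 to 0.69), with 7 of 10 tested genes higher, and Wdr43 stood at 1.80.

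Of the 22 genes of the fibrillar collagen list 1, Col1a1, was at least 1.5-fold lower in dKO members, a share near the 3.93% of all tested genes, and 0 of 21 were without the Cxcl5-rich members. The list's sum went from 46536 to 36324 CPM (log2 ratio -0.36, -0.37 to -0.34; -0.34 in the other gated FAPs). Col1a1 had 5105 and 5475 UMIs (-0.59) and Col3a1 16583 and 19672 (-0.45, -0.48 to -0.42). Per cell, Col3a1 had a median of 125 UMIs in Ctrl members (2 to 697) and 106 in dKO members (8 to 685), with ranges that overlap nearly in full. Mgp had 1242 UMIs in 61 Ctrl members and 727 in 56 dKO members (-1.46, -1.60 to -1.33), against -0.53 in the other gated FAPs. The parenchymal FAP list had 4 of 13 tested genes lower and 1 higher, where 3.93% and 8.56% of all tested genes were. Col15a1, found around vessels and fibres, had 190 and 123 UMIs (-1.32), Smoc2 651 and 549 (-0.94) and Lum (lumican, a proteoglycan of collagen fibrils) 853 and 802 (-0.78), while Cxcl14, a chemokine, had 326 and 1024 (0.96), with 209 of the dKO UMIs in 1 cell, and stood at -1.488 when cells were thinned to 5000 UMIs.

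The hyaluronan matrix list had 3 of 4 tested genes higher and a summed log2 ratio of 0.54 (0.46 to 0.62). None of the 4 passed 1.5-fold without the Cxcl5-rich members, and the sum stood at 0.41 (0.33 to 0.50). Has2, a hyaluronan synthase, had 80 and 203 UMIs (0.65), Ugdh, which makes its sugar precursor, 762 and 1883 (0.61) and Cd44, the main hyaluronan receptor, 158 and 448 (0.81). The fourth, Vcan (versican), had 825 and 1734 (0.38). Of the microfibril and elastic fibre list 2 of 17 were lower, Mfap2 (-0.68) and Mfap4 (-0.59), and 0 of 17 without the Cxcl5-rich members. Mfap4 had 154 of its 348 dKO UMIs in 1 cell, and in the thinned setting its log2 ratio was 2.0. The myofibroblast list had 2 of 7 tested genes lower, Tgfbi (-0.79) and Fap (-0.73), and a summed log2 ratio of -0.10 that turned in sign under several settings. The adventitial fibroblast list had 1 of 19 higher and 2 lower, where 8.56% and 3.93% of all tested genes were, so counts this small say nothing about the list. Procr (the protein C receptor) had 428 and 1285 UMIs (0.89), Tppp3, a tubulin-binding protein, 835 and 746 (-0.85) and Stmn4 93 and 71 (-1.08).

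Some stress genes were lower in dKO members. Immediate early genes, which are induced within minutes by growth factors and by cell handling, had 6 of 20 tested genes lower and 1 higher, where 3.93% and 8.56% of all tested genes were. Their sum went from 16249 to 11901 CPM (log2 ratio -0.45, -0.48 to -0.42), against -0.05 in the other gated FAPs. Dusp1, a phosphatase of MAP kinases, had 1251 and 1097 UMIs (-0.88), Ier2 612 and 526 (-0.91), Jun 2039 and 2077 (-0.67) and Fos 1863 and 1901 (-0.66). Klf2, a factor of quiescence and flow sensing, was the exception, at 194 and 476 UMIs (0.60). Heat shock genes had 4 of 15 tested genes lower and none higher, and their sum went from 26919 to 21085 CPM (-0.35, -0.37 to -0.33), against -0.02 in the other gated FAPs. The difference between members and other gated FAPs was not tested. Once the Cxcl5-rich members were left out, 3 of 20 immediate early genes were lower and 0 higher, and 1 of 15 heat shock genes was lower, beside 2.44% lower of all genes tested in that setting. In cells of 8000 to 20000 UMIs the immediate early sum stood at -0.24. Cryab, a small heat shock protein, had 1192 and 1017 UMIs (-0.92) and Hsp90aa1 3838 and 4050 (-0.61). Hspa1a and Hspa1b are near-identical copies, so their split is uncertain. Per 10000 UMIs the immediate early list ran from 21.3 to 755 in Ctrl members and from 12.0 to 483 in dKO members, so that the ranges overlapped widely.

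**Figure D5:**
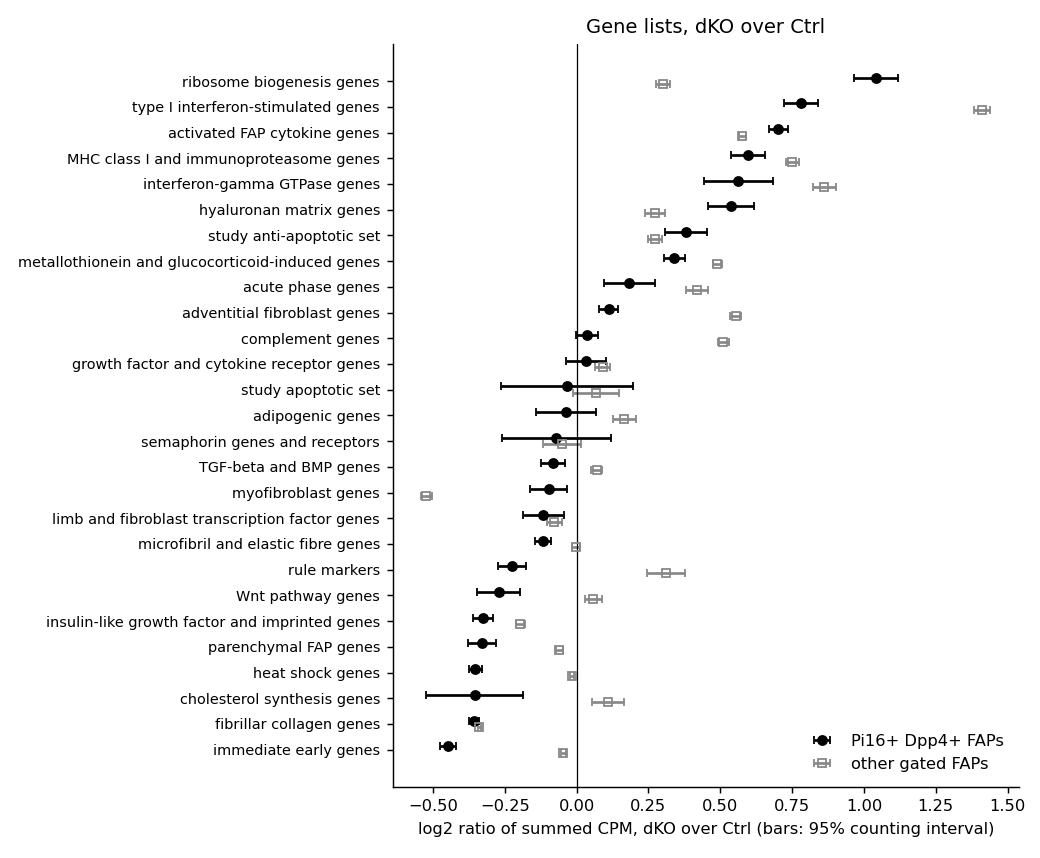
log2 ratio of the summed CPM of each gene list, dKO over Ctrl, in Pi16+ Dpp4+ FAPs (filled circles) and in the other gated FAPs (open squares), with 95% counting intervals. Interferon genes are higher in both groups of cells with the larger ratio in the other gated FAPs, whereas the sums of ribosome biogenesis, immediate early and heat shock genes lie further from 0 in Pi16+ Dpp4+ FAPs.

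In the remaining lists the counts past 1.5-fold were small, 0 to 2 genes in each direction, and are to be read against the 8.56% higher and 3.93% lower of all tested genes. None is a result about its list. Metallothionein and glucocorticoid-induced genes had 1 of 10 tested genes higher, Mt2 (1865 and 4634 UMIs, log2 ratio 0.62), and a summed ratio of 0.34 (0.30 to 0.38). Complement genes had 1 of 9 higher, C2 (0.65), and a summed ratio of 0.04 (-0.000794 to 0.0737), against 0.51 in the other gated FAPs. TGF-beta and BMP genes had 2 of 15 higher, the activin subunit gene Inhba (20 and 107 UMIs, 1.73) and Tgfb2 (139 and 349, 0.64), and a summed ratio of -0.08. Wnt pathway genes had 2 of 10 lower, the ligand gene Wnt5a (-0.87) and the secreted Wnt binder Sfrp4 (-0.64), and a summed ratio of -0.27. Insulin-like growth factor and imprinted genes had 1 of 15 lower, Plagl1 (-0.68), and a summed ratio of -0.33. Without the Cxcl5-rich members 0 of 9 Wnt pathway genes and 0 of 15 insulin-like growth factor and imprinted genes were lower, and 1 of 14 TGF-beta and BMP genes was higher. Growth factor and cytokine receptor genes had 1 of 18 past 1.5-fold, Il1rl1, and a summed ratio of 0.03. None of 13 limb and fibroblast transcription factor genes (summed ratio -0.12), 4 adipogenic genes (-0.04) or 2 semaphorin genes and receptors (-0.07) passed 1.5-fold. The anti-apoptotic and apoptotic sets were listed by the study, which had these samples in hand, so their direction is not independent evidence. None of 5 tested anti-apoptotic genes passed 1.5-fold (summed ratio 0.38, with Hspa5 holding 1658 of 2263 and 3688 of 4756 UMIs), nor did the 1 tested apoptotic gene, Bax (-0.16, set -0.03). A cholesterol synthesis list, drawn up after Hmgcs1 was seen among the lowest genes, had 1 of 4 tested genes lower, Hmgcs1 itself (132 and 75 UMIs, with 33 of the Ctrl UMIs in 1 cell), and a summed ratio of -0.36.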

How the data were processed

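Live mononuclear cells of hind limb muscle were profiled by droplet single cell RNA-seq (10x Chromium) in 1 Ctrl and 1 dKO library. The authors deposited raw UMI counts as a gene by cell matrix for each library, with no normalization. The submitters' processing notes name Cell Ranger 7.0.0, Seurat 4.3.0, Cufflinks and mm10, whereas the file headers name Cell Ranger 3.0.2. The files give 24984 gene symbols, 0 of them mitochondrially encoded, so no mitochondrial filter could act. Of these, 24458 were found in GENCODE M21 (GRCm38), which gave the positions.

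Cells with fewer than 500 genes (192 Ctrl, 154 dKO) were left out, and the rule was applied to raw counts. Doublets were removed only as an alternative (the top 7.5% of Scrublet scores per library, scanpy 1.11.5 with 30 components). UMIs were summed over members and scaled to their total. With 1 library per group no model was fitted, and a gene was called at 1.5-fold on the point estimate if it had at least 100 UMIs. Intervals at 95% are exact binomial for shares, Newcombe for differences of shares, exact Poisson for CPM and exact conditional binomial for ratios. Those of ratios and of differences of shares were tested on simulated Poisson and binomial counts, which hold no further spread between cells. The software was numpy 2.4.6, pandas 2.3.3 and scipy 1.17.1. PCR duplicates are collapsed in UMI counts, but cells of 1 pool are not replicates.

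Named genes were the 10 highest and 10 lowest ratios, the 7 markers, up to 5 genes per list with the largest ratios, and, for members over other gated FAPs, the 15 highest and 10 lowest genes and genes of the lists. Any other gene given with values (such as Krtdap, Ncl, Npm1, Nop56, Ccl2, Tnfaip6, Isg15, Bst2, Eif2ak2, Fos and Klf2) was named after its values were seen. The members and lists were chosen with earlier results of these data known. The alternatives changed the Pi16 minimum (3 or 8), the depth (thinned to 5000 UMIs, with at least 2 Pi16 UMIs, or a window of 8000 to 20000), the UMI minimum per gene (50 or 200), the gene minimum per cell (200), the scaling and the weighting of cells. Leukocytes were cells with at least 2 Ptprc UMIs and neither Pdgfra nor Cdh5, endothelial cells had Cdh5 and Pecam1 without Ptprc or Pdgfra, and MuSCs had Cdh15 with Pax7 or Myf5 and neither Ptprc nor Pdgfra. Some genes are not reported here.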

Additional observations from a re-analysis of the deposited data

Results flagged for a closer look

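Some values differed in direction between Pi16+ Dpp4+ FAPs and the other gated FAPs, with counting intervals that excluded 0 on both sides. The difference between the 2 groups of cells was not tested, and all values are log2 ratios of dKO over Ctrl. Among lists, TGF-beta and BMP genes stood at -0.0819 in members and 0.07 in the other gated FAPs, Wnt pathway genes at -0.27 and 0.06, and cholesterol synthesis genes at -0.36 and 0.11. The 7 rule markers stood at -0.23 and 0.31, but 3221 of their 5920 UMIs in Ctrl members and 4637 of 8181 in dKO members were of Pi16, which with Dpp4 divided the cells into these groups, so nothing is read from the opposite signs. The members' value was -0.06 without the Cxcl5-rich members and 0.10 in cells of 8000 to 20000 UMIs. Without the Cxcl5-rich members the TGF-beta and BMP value was -0.0172 (-0.0615 to 0.0272), which includes 0. Among genes of the members themselves, Smpd3 stood at -0.67 and 0.85, Mgll at -0.61 and 0.65, and Cxcl13 at -0.91 and 2.65. Stress and signalling genes with opposite signs were Cryab (-0.92 and 0.53), Hspb1 (-0.61 and 0.09), Atf3 (-0.73 and 0.14), Myc (-0.67 and 0.19), Socs1 (-1.11 and 0.45) and Arid5a (-1.11 and 0.33). Sfrp4, the secreted Wnt binder, stood at -0.64 and 0.18.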

How the results depend on the processing

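No paired analysis was possible because each group had 1 library. All values are log2 ratios of dKO over Ctrl members unless they are counts, and the cause of each change was not tested except where fewer cells or genes entered by construction. The directions of the interferon, MHC class I, cytokine, ribosome biogenesis, collagen, heat shock and immediate early lists held under every setting tried. With at least 3 Pi16 UMIs, heat shock genes stood at -0.44 and immediate early genes at -0.53. With at least 8, collagen genes stood at -0.26, interferon genes at 0.68, MHC class I genes at 0.53, heat shock genes at -0.27, immediate early genes at -0.35 and ribosome biogenesis genes at 0.95, and myofibroblast genes turned to 0.0317. Thinned to 5000 UMIs, 171 genes were higher and 89 lower, collagen genes stood at -0.28, interferon genes at 0.61, heat shock genes at -0.42, immediate early genes at -0.28 and ribosome biogenesis genes at 0.68. Reversed in that setting were myofibroblast genes (0.00586), interferon-gamma genes (-0.0608), Mfap4 (2.0), Cxcl14 (-1.488) and Cxcl10 (-0.16). With doublets removed, collagen genes stood at -0.34, cytokine genes at 0.81, interferon genes at 0.68, heat shock genes at -0.31 and immediate early genes at -0.36, and myofibroblast genes turned to 0.0136. In cells of 8000 to 20000 UMIs, 187 genes were higher, the share of all cells differed by 2.83 points, collagen genes stood at -0.42, cytokine genes at 0.77, MHC class I genes at 0.73, immediate early genes at -0.24 and ribosome biogenesis genes at 0.81, while the rule markers (0.10) and Inmt (0.0171) reversed. Without the Cxcl5-rich members, an alternative chosen after seeing the data, 180 genes were higher and 88 lower, collagen genes stood at -0.23, cytokine genes at 0.55, interferon genes at 0.86, MHC class I genes at 0.71, heat shock genes at -0.31, immediate early genes at -0.30 and ribosome biogenesis genes at 0.61, and myofibroblast genes turned to 0.0127. A minimum of 50 UMIs per gene gave 624 higher and 396 lower genes, and one of 200 gave 171 and 69. Scaled to the median ratio of genes, collagen genes stood at -0.38 and heat shock genes at -0.38, and the calls split into 311 higher and 194 lower (61.6% higher, against 68.5%). With the mean of each cell's own CPM, collagen genes stood at -0.28, immediate early genes at -0.36 and ribosome biogenesis genes at 0.87, and myofibroblast genes turned to 0.000491. Without the top cell of each library, heat shock genes stood at -0.28 and immediate early genes at -0.40. Depth limits the genes that could be compared, since 20940 of 24984 had fewer than 100 UMIs in the members.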
